A study of Mus musculus with 10 samples.

Results

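RUNX1 binding around Vegfa was described from peaks with a summit between 46.22 and 46.45 Mb of mouse chromosome 17 (GRCm39), which covers the gene and about 100 kb to either side. Peaks of the 6 RUNX1 lists that overlapped by at least 1 bp were merged into sites. This gave 10 sites out of 64286 merged regions in the genome. The locus was chosen by the fold enrichment and −log10 q of these same lists, in which a site far upstream of the gene is among the strongest, so the strength of that site and its presence in every list are given as descriptions and were not tested. Vegfa lies at about 46.328 to 46.343 Mb on the minus strand, so that upstream of the gene means higher coordinates. These gene limits are known here only to the nearest 1 kb.

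All libraries came from MLE cells, which are mouse epithelial cells of the large bile ducts. Cells close to confluence received TGFβ at 10 ng/mL overnight or vehicle, and RUNX1 was recovered from enzymatically cut chromatin with a polyclonal antibody. Each treatment had 3 RUNX1 libraries, replicates 1 and 2 from batch 1 and replicate 3 from batch 2, and 4 input libraries were not analysed here. Where 3 values are given for a treatment, they are in the order of replicates 1, 2 and 3, and a pair is the TGFβ and the vehicle library of 1 replicate number. No genotype, passage or clone is labelled, and the labels do not state whether libraries of 1 treatment came from separate cultures, so p-values measure only the spread between these libraries, which may be technical. The lists hold no read totals, so absolute depth is unknown. Cell identity cannot be checked against marker expression in peak lists.

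Vegfa encodes vascular endothelial growth factor A, a secreted ligand that acts on endothelial cells through the receptors KDR and FLT1 and drives the growth and permeability of vessels. Its transcription responds to hypoxia and to growth factors, TGFβ among them. In the liver, cholangiocytes are a source of VEGF, and bile ducts are fed by a vessel plexus of their own. RUNX1 is a DNA-binding transcription factor that pairs with CBFB and often binds at distance from the genes it acts on.

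The start of Vegfa lies inside a called site, so the 250 bases before it are shown. They are taken from RefSeq (GRCm38.p6, chr17:46032378-46032627, minus strand), whose positions are not comparable with those of the peaks, and are written 5′ to 3′ with the GC boxes (GGGCGG) in capitals:
Vegfa: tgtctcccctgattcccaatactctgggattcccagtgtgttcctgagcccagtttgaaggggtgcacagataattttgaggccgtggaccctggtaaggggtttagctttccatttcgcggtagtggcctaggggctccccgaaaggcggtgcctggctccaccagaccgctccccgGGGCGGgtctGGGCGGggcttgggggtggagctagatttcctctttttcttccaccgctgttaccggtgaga
The stretch is 59.2% G and C. Neither TGTGGT nor TGCGGT, the core letters of the RUNX consensus, occurred on either strand, while 18.6% of 32841 promoter stretches of the same length held at least 1 of them. The GC box GGGCGG, searched on both strands, occurred 2 times, 72 to 67 and 62 to 57 bases before the start, and was present in 32.7% of promoter stretches. These letters describe this window only. The sequence under the distal site was not analysed here.

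RUNX1 was called at 3 of the 10 sites in all 6 lists: site 5, over the start of Vegfa, site 8, about 42.0 kb upstream, and site 9, about 79.0 kb upstream. Over all merged regions 6.36% were called in all 6 lists. Sites are numbered 1 to 10 from the downstream flank to the upstream flank. Site 8 had the highest fold enrichment of the window in each list. It ran from 30.5 to 56.3 in batch 1, far above the other 9 sites, which lay between 2.00 and 8.53 over all lists. In batch 2 it was 7.91 and 7.36, closer to the next site, which had 4.99 and 3.51. Fold enrichment is the authors' ratio of signal at the summit to the local background used for that peak. Which library gave that background is not stated in the sources used here.

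**Figure D1:**
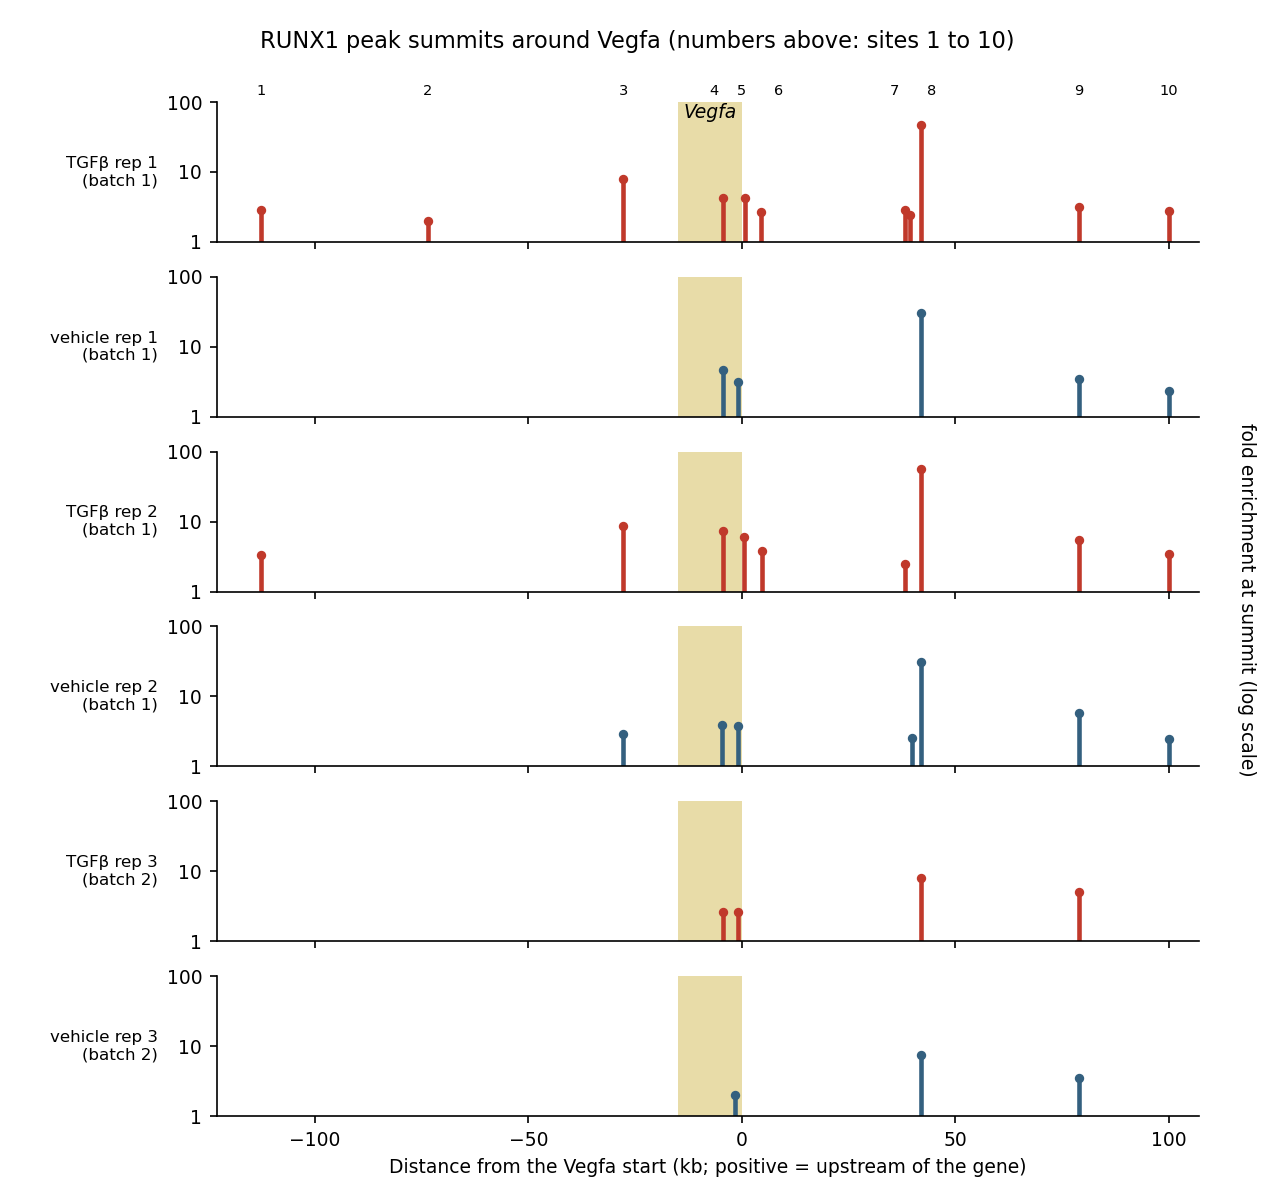
Summits of called RUNX1 peaks by distance from the Vegfa start (x axis, kb, positive values upstream) with their fold enrichment on a log scale (y axis), 1 panel per library, with the gene shaded. Site 8, about 42.0 kb upstream, is the tallest in each panel, and batch 2 panels hold 4 and 3 peaks against 5 to 11 in batch 1.

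Site 8 spanned chr17:46382343-46386418 as merged. Fold enrichment at its summit was 47.6 in TGFβ replicate 1, 56.3 in TGFβ replicate 2 and 7.91 in TGFβ replicate 3. With vehicle it was 30.5, 30.9 and 7.36. Both batch 1 TGFβ libraries were above both batch 1 vehicle libraries, and both batch 2 libraries were far below all of batch 1, so the treatments overlapped over the 6 libraries. In its own list the site ranked 1 of 33601 peaks by fold in TGFβ replicate 1, 4 of 42050 in TGFβ replicate 2 and 124 of 18790 in TGFβ replicate 3. In the vehicle lists it ranked 2 of 14733, 5 of 21602 and 56 of 16265. Among the 4087 regions called in all 6 lists it came 2nd by its median rank of −log10 q and 4th by its geometric mean fold.

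The pileup at the summit, that is the count of fragments overlapping it, was recovered from the deposited fold and p-value, with an exact Poisson 95% interval that covers counting error only. It was 586 fragments (540 to 635) in TGFβ replicate 1 and 356 (320 to 395) in vehicle replicate 1. In replicate 2 it was 641 (592 to 693) with TGFβ and 382 (345 to 422) with vehicle. In batch 2 it was 148 (125 to 174) with TGFβ and 137 (115 to 162) with vehicle. Counting intervals of paired libraries were apart in batch 1 and overlapped in batch 2. Per unit of the lowest background of each list, which scales with depth, the pileup was 51.7, 61.6 and 14.0 with TGFβ and 33.4, 33.6 and 11.6 with vehicle. The background used at this summit was at most 1.004 times the lowest of the list in the 4 batch 1 libraries, but 1.69 and 1.50 times in TGFβ and vehicle replicate 3.

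**Figure D2:**
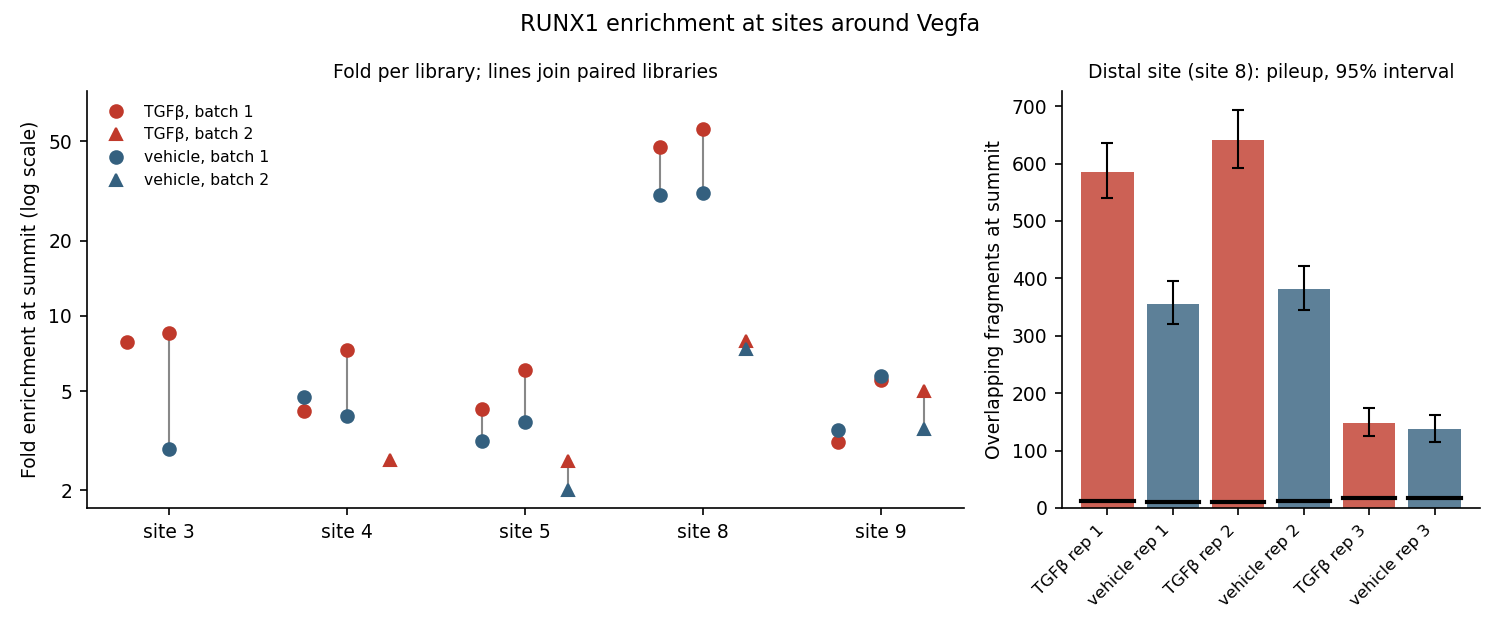
Left, fold enrichment at the summit (log scale) of sites 3, 4, 5, 8 and 9 for each library in which the site was called, with lines joining libraries paired by batch and title wording. Right, fragments overlapping the summit of site 8 in each library (bars, linear axis from 0) with the 95% Poisson interval, black lines marking the background; batch 1 bars run from 356 to 641 and batch 2 bars are at 148 and 137.

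The TGFβ to vehicle ratio of fold at site 8 was 1.56 in pair 1, 1.82 in pair 2 and 1.07 in pair 3. The mean difference on the log2 scale was 0.54 ± 0.39 (SD over the 3 pairs). Regions called in all 6 lists had median ratios of 1.36, 1.51 and 1.22 in the same pairs. A higher ratio than that of site 8 was found in 32.2% of those regions in pair 1, 26.0% in pair 2 and 75.7% in pair 3. Fold was higher with TGFβ in all 3 pairs at site 8, as in 72.3% of these regions. The direction of the site was thus that of most regions called in every list, and its ratios lay within the range between their quartiles in pairs 1 and 2 (1.12 to 1.66 and 1.27 to 1.83) and just below it in pair 3 (1.08 to 1.38).

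**Figure D3:**
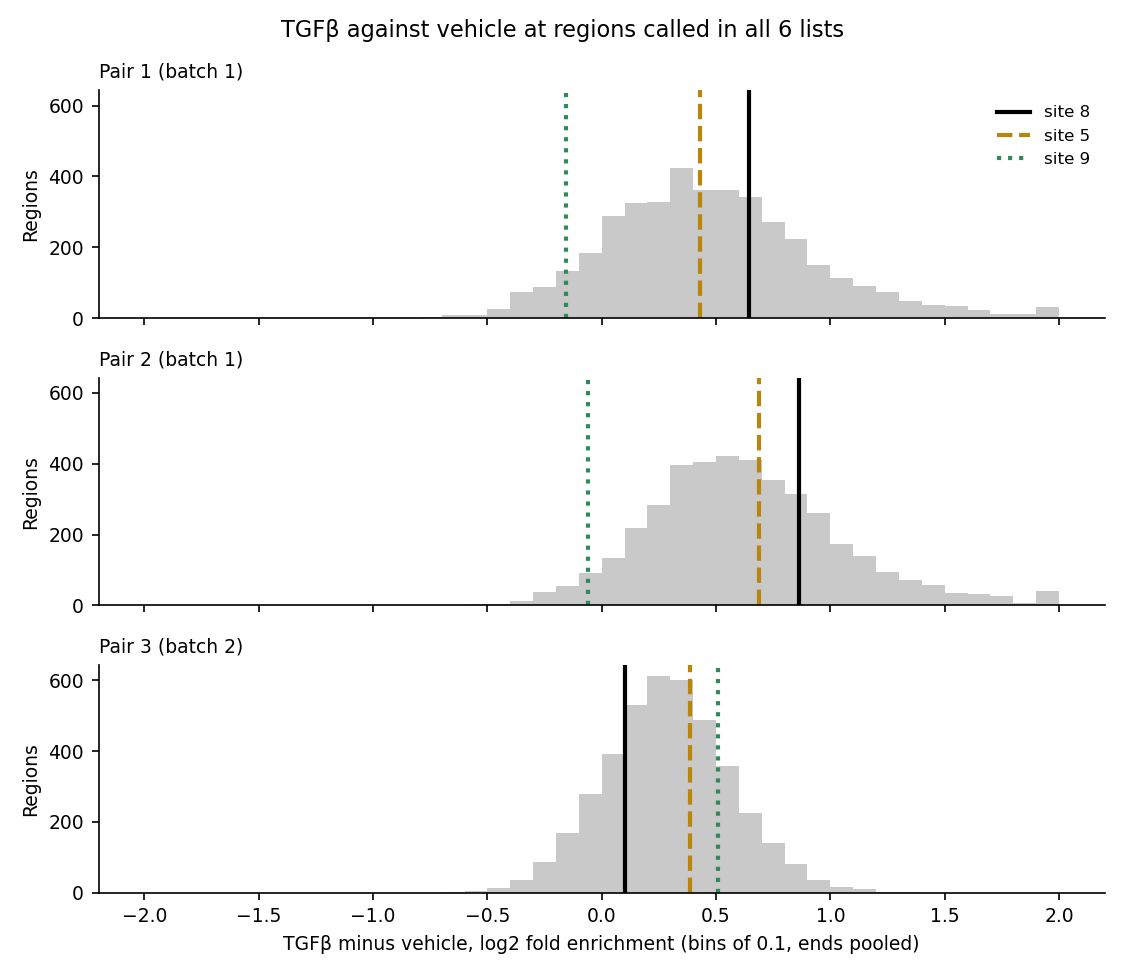
Log2 difference in fold enrichment, TGFβ minus vehicle (x axis), for the 4087 regions called in all 6 lists (grey, regions per bin of 0.1), 1 panel per pair. Site 8 (solid) lies to the right of the median in pairs 1 and 2, at 0.64 and 0.86, and to the left in pair 3, at 0.10; site 9 (dotted) lies below 0 in pairs 1 and 2 and at 0.51 in pair 3.

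Site 8 also had a wide gap between batches. Its geometric mean fold was 39.9 over the 4 batch 1 libraries and 7.63 over the 2 batch 2 libraries, a ratio of 5.22. The median ratio over regions called in all 6 lists was 1.61, and 0.685% of them had a larger one. The summit background in batch 2 stood above the lowest of its lists, and on the scale of pileup over lowest background the ratio of site 8 was 3.40, with a median of 1.60 and 3.60% of regions above it. Since the site was picked for enrichment that is largely that of batch 1, this ratio is a description.

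Summits of site 8 agreed closely. The strongest summit of the 6 lists fell between 46384955 and 46384968, a span of 13 bp, against a median span of 290 bp over the regions called in all 6 lists. Of those regions, 0.612% had a span of at most 20 bp. The site was picked for its strength, and spans of regions of like strength were not compared, so this closeness is a description. The called interval differed more. It was 1863, 3978 and 669 bp wide with TGFβ and 1349, 2280 and 580 bp with vehicle. It was wider with TGFβ in each pair, as were 63.1% of regions called in all 6 lists, and narrower in both batch 2 lists than in any batch 1 list. All 6 intervals shared 578 bp, from 46384697 to 46385274.

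The downstream side of site 8, toward Vegfa, carried weaker calls in batch 1. TGFβ replicate 1 had a separate peak from 46382360 to 46383423 with a fold of 2.45, and vehicle replicate 2 had one from 46382343 to 46382897 with a fold of 2.52. In TGFβ replicate 2 the same ground was part of 1 interval with the main summit. Site 7, from 46380971 to 46381456, followed 886 bp further on and was called in both batch 1 TGFβ lists, where fold was 2.83 and 2.49.

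**Figure D4:**
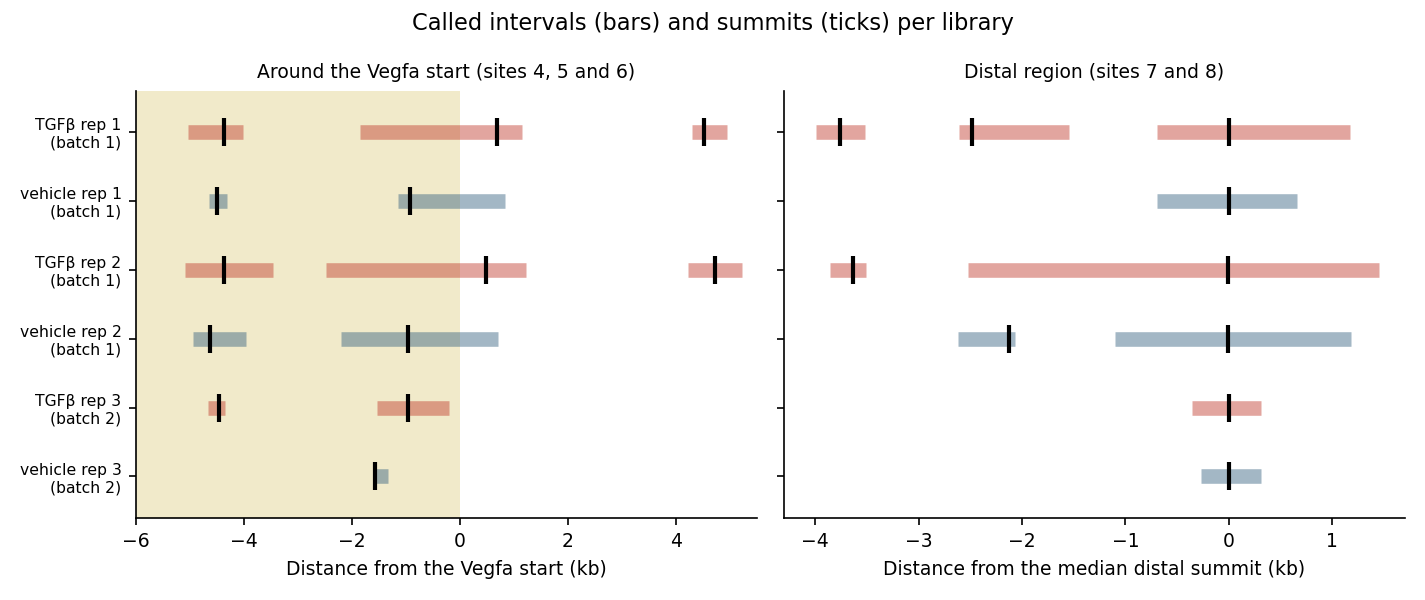
Called intervals (bars) and summits (ticks) in each library around the Vegfa start, with the gene shaded, and around the distal site, by distance in kb. Distal summits line up within 13 bp in the 6 libraries. Summits of site 5 lie on the upstream side of the start, as given to the nearest 1 kb, in TGFβ replicates 1 and 2. They lie inside the gene in the other 4.

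Regions with the profile most like that of site 8, by Euclidean distance of log2 fold over the 6 libraries, lay on other chromosomes. The nearest was chr16:32248288-32251041, at a distance of 0.72, where the TGFβ libraries had folds of 34.1, 41.8 and 8.83 and the vehicle libraries 25.2, 32.2 and 7.76. The next were chr11:114961531-114963299, at 1.04, and chr16:4702554-4704811, at 1.10. Their TGFβ to vehicle ratios in pairs 1, 2 and 3 were 1.35, 1.30 and 1.14 for the first region. They were 1.68, 1.78 and 1.26 for the next and 1.15, 1.45 and 1.37 for the last. Each of these regions was higher with TGFβ in all 3 pairs, and each had its lowest folds in batch 2, as site 8 did. They were chosen for a like profile over these same libraries, so this likeness is a description. Their ratios of geometric mean fold between batch 1 and batch 2 were 3.96, 3.80 and 3.31, and 3.53, 3.23 and 2.53 on the scale of pileup over lowest background. The first of them was above the 3.40 of site 8 on the latter scale, so there the gap was not particular to site 8. By fold, all 3 were below the 5.22 of site 8.

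At the gene itself RUNX1 was called at 2 sites. Site 5, chr17:46340514-46344226, covered the start of Vegfa in both batch 1 lists of each treatment. Its fold was 4.24, 6.05 and 2.62 with TGFβ and 3.15, 3.76 and 2.00 with vehicle. TGFβ was higher in each pair, by 1.35, 1.61 and 1.31 times, beside medians of 1.36, 1.51 and 1.22 over regions called in all 6 lists. Summits of the paired lists lay 1614, 1447 and 605 bp apart, so each ratio compares folds at different positions in the site. The treatments overlapped, since TGFβ replicate 3 was below vehicle replicates 1 and 2. The peak of vehicle replicate 3 was among the weakest of its list, ranking 15661 of 16265 by −log10 q. It had 30 fragments (20.2 to 42.8) against 44 (32.0 to 59.1) in TGFβ replicate 3, and these counting intervals overlapped. On the scale of pileup over lowest background the TGFβ to vehicle ratio of this pair was 1.64. Of the 7713 regions called in both lists, 7.42% had a higher one. In pairs 1 and 2 the ratio on that scale was 1.21 and 1.46. Both were below the medians of 1.40 and 1.53 over regions called in both lists of the pair, and 68.5% and 55.8% had a higher one. These differences were not tested.

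The position of the strongest summit in site 5 differed between treatments in batch 1. In TGFβ replicates 1 and 2 it lay at 46343688 and 46343493, about 0.7 and 0.5 kb to the upstream side of the gene start. That start is given to the nearest 1 kb, so the side of the TGFβ replicate 2 summit is not certain. In vehicle replicates 1 and 2 it lay at 46342074 and 46342046, inside the gene and about 0.926 and 0.954 kb from its start. The summit of TGFβ replicate 3, at 46342034, fell beside those of the batch 1 vehicle lists, and that of vehicle replicate 3 was at 46341429. The mean summits of the batch 1 treatments were 1530.5 bp apart. Shifts of at least 1000 bp made up 2.25% of the 4087 regions with a call in each list. Among the 524 such regions at least as wide as site 5, 7.82% had a shift as large as this one. The 6 summits of site 5 spanned 2259 bp, and its 6 intervals had 0 bp in common: the peak of vehicle replicate 3, from 46341416 to 46341666, ended before that of vehicle replicate 1 began, at 46341857. Each row carries 1 summit only, so a lower maximum in the same interval is not recorded.

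Site 4, chr17:46337898-46339540, lay inside Vegfa about 4.46 kb from its start and was called in all lists except vehicle replicate 3. Its fold was 4.18, 7.32 and 2.64 with TGFβ, and 4.71 and 3.96 in the batch 1 vehicle libraries. TGFβ was lower than vehicle in pair 1 and higher in pair 2. That difference in direction depends on which libraries are paired within batch 1. With the vehicle partners exchanged, TGFβ was higher in both, at 4.18 against 3.96 and 7.32 against 4.71. In pair 1, 51 fragments (38.0 to 67.1) stood against 54 (40.6 to 70.5), and the intervals overlapped. In pair 2, 83 (66.1 to 103) stood against 48 (35.4 to 63.6), and the intervals were apart. Summits of the 5 lists spanned 265 bp.

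Upstream of the distal site, site 9, chr17:46421260-46422497, was called in all 6 lists, with folds of similar size in both batches. It is placed by its distance from Vegfa only, and whether it lies at another gene was not determined. Its fold was 3.14, 5.51 and 4.99 with TGFβ and 3.49, 5.75 and 3.51 with vehicle. TGFβ was below vehicle in both batch 1 pairs, with ratios of 0.899 and 0.959, and above it in batch 2, with a ratio of 1.42. Only 1.96% of regions called in all 6 lists showed this order of pairs. The order depends on which libraries are paired within batch 1. TGFβ replicate 1 (3.14) was below both vehicle libraries of batch 1, but TGFβ replicate 2 (5.51) was above vehicle replicate 1 (3.49). In pair 2 the fragments at the summit were 95 (76.9 to 116) with TGFβ and 79 (62.5 to 98.5) with vehicle, while the background was 1.58 times the lowest of the list with TGFβ and 1.13 times with vehicle. In pair 1 they were 56 (42.3 to 72.7) and 62 (47.5 to 79.5), with backgrounds of 1.52 and 1.60 times the lowest. In batch 2 they were 67 (51.9 to 85.1) and 48 (35.4 to 63.6), with backgrounds of 1.20 and 1.10 times. Counting intervals thus overlapped within each pair. On the scale of pileup over lowest background the TGFβ to vehicle ratios were 0.851, 1.32 and 1.56 in pairs 1, 2 and 3, so the direction of pair 2 turned with the scale.

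Between batches, the values of site 9 lay close together. Its geometric mean fold was 4.32 in batch 1 and 4.19 in batch 2, a ratio of 1.03, and 94.6% of regions called in all 6 lists had a larger one. On the scale of pileup over lowest background the ratio was 1.28, and 78.2% had a larger one. In batch 2 it ranked 901 of 18790 peaks by fold with TGFβ and 1508 of 16265 with vehicle. In batch 1 it ranked 17485 and 10034 with TGFβ and 5582 and 2347 with vehicle. The 6 summits spanned 191 bp, and 40.3% of regions called in all 6 lists had a span of at most 200 bp.

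On the downstream flank, site 3 gave the highest fold of the window after site 8. It spanned chr17:46314896-46315678, about 12.7 kb beyond the end of Vegfa. Its fold was 7.85 in TGFβ replicate 1, 8.53 in TGFβ replicate 2 and 2.92 in vehicle replicate 2, and the other 3 lists did not call it. Batch 1 TGFβ values were both well above the only vehicle value. The ratio in pair 2 was 2.92 with a median of 1.52 over the 17316 regions called in both lists, of which 5.81% had a higher ratio. Fragments were 98 (79.6 to 119) and 99 (80.5 to 121) in TGFβ replicates 1 and 2 and 36 (25.2 to 49.8) in vehicle replicate 2. Vehicle replicate 1, which did not call the site, had called peaks at its lowest background from 23 fragments upward. That threshold is the only limit its list sets on the signal there. Summits of the 3 lists lay within 26 bp.

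The remaining sites were weak. Site 10, chr17:46442380-46443369, was called in all 4 batch 1 lists, where fold was 2.74 and 3.42 with TGFβ and 2.34 and 2.50 with vehicle. Sites 1, 6 and 7 were called in TGFβ replicates 1 and 2 and in no other list, a pattern shared by 15.2% of all merged regions. Their folds ran from 2.49 to 3.77. Site 6, chr17:46347225-46348221, lay about 4.62 kb upstream of the gene start. Site 1, chr17:46230296-46231152, lay 97.6 kb beyond the gene end. Site 2, chr17:46269184-46269458, was called in TGFβ replicate 1 alone with a fold of 2.00, and 50% of merged regions were called in 1 list.

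No site, 0 of 10, was found in every TGFβ library while missing from every vehicle library, a pattern of 0.619% of merged regions, and likewise 0 of 10 showed the opposite pattern, which 0.0109% of merged regions had. The 5, 6 and 3 sites called with vehicle were each also called in the paired TGFβ library, beside 92.4%, 90.4% and 49% of all regions called with vehicle in pairs 1, 2 and 3. Sites called with TGFβ and not in the paired vehicle list numbered 5, 3 and 1, and the same pattern was found for 29.2%, 37.6% and 15.7% of all merged regions. Sites called in each list numbered 10, 9 and 4 with TGFβ and 5, 6 and 3 with vehicle. The share of all merged regions called by the same lists was 47.9%, 64.5% and 27.7% with TGFβ and 20.2%, 29.8% and 24.5% with vehicle.

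The number of peaks in the window was 11, 9 and 4 with TGFβ and 5, 7 and 3 with vehicle. Means were 8.0 ± 3.61 with TGFβ and 5.0 ± 2.0 with vehicle (SD, n = 3 libraries each), a ratio of 1.60, and the groups overlapped (two-sided exact permutation p = 0.3, smallest possible 0.1). TGFβ was higher in 3 of 3 pairs (exact sign-flip permutation p = 0.25, the smallest possible). Permuting labels within batches gave an exact p of 0.167 for the difference of group means, also the smallest possible. In batch 1 alone the ratio was 1.67 (exact permutation p = 0.333, the smallest possible), and batch 2 holds 1 library per treatment. Whole lists gave a ratio of 1.80. In lists limited to the length of the shortest, 14733 peaks, the ratio in the window was 1.17.

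Length covered by peaks in the window was 10.8, 14.3 and 3.06 kb with TGFβ and 4.71, 8.44 and 1.06 kb with vehicle. Means were 9.40 ± 5.75 kb and 4.73 ± 3.69 kb (SD, n = 3 libraries each), a TGFβ to vehicle ratio of 1.99 (exact permutation, two-sided, p = 0.3, smallest possible 0.1). Over whole lists the ratio was 2.33. Permuting labels within batches gave an exact p of 0.167, and the exact sign-flip permutation over pairs gave p = 0.25. In batch 1 alone the ratio was 1.91 (exact permutation p = 0.333). These last 3 p-values are each the smallest possible. TGFβ was higher in 3 of 3 pairs, by 2.30, 1.69 and 2.89 times.

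The window held more peaks than the mean stretch of its length in each list. Because the locus was chosen by enrichment in these same lists, this is a description. Over 11430 consecutive tiles of 230 kb the mean number of peaks was 2.94, 3.68 and 1.64 with TGFβ and 1.29, 1.89 and 1.42 with vehicle. Tiles with at least as many peaks as the Vegfa window made up 7.03%, 14.9% and 12.9% in the TGFβ lists and 8.60%, 8.13% and 15.8% in the vehicle lists. The sites nearest to the window on either side, 24.5 kb below and 5.30 kb above its limits, were each called in 1 list with folds of 2.67 and 2.19. The next protein-coding gene on the upstream side of Vegfa in the RefSeq gene order is Mrps18a, a mitochondrial ribosomal protein gene, and no site was assigned to it because that gene table is of another build.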

How the data were processed

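RUNX1 ChIP-seq peak lists of 6 libraries were used, 1 list per library. Per the submitters' processing notes, the builds named are mm39 and GRCm39 and the tools DRAGEN, Trimmomatic, Bowtie2 2.5.2 and MACS2; commands, control library and threshold are not given in the sources used here. Lists are in narrowPeak format. For each peak the authors deposited a score, a fold (the ratio of signal to local background) and the −log10 of both the p-value and the q-value. The authors' fold was used to describe and rank peaks. The deposited lists hold peaks with a −log10 q-value from about 1.00 upward.

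Positions are 1-based. In each site the row of highest −log10 q represents a list. Pileup and background were recovered as the whole number that satisfies fold = (pileup + 1)/(background + 1) and the Poisson upper tail, matching the deposited −log10 p within 0.001 for 99.98% to 99.99% of the peaks of each list. Read totals are unknown, and lowest backgrounds were 10.4 to 11.8 fragments. Divided by the smallest peak width of each list, as a stand-in for relative depth, they gave 0.0497, 0.0434 and 0.0473 with TGFβ. With vehicle they gave 0.0452, 0.0497 and 0.0534. Whether this stand-in follows read totals could not be checked. Group values were compared by exact permutation. Libraries were paired by batch and title wording. Over all merged regions, deviations from the treatment's mean call were correlated between paired libraries. Pearson's r was 0.135 for replicate 1, 0.225 for replicate 2 and 0.418 for replicate 3. Replicate 3 is the only batch 2 library of each treatment, so its r cannot separate pairing from batch. Partners exchanged within batch 1 were not compared, so these values do not decide the choice of partners there.

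The locus, sites and comparisons were chosen with earlier results of these data known. Full values are given for the site of highest median rank, sites in or near Vegfa and sites called in all lists; site 3 was added after its values were seen. A planned count over VEGF and hypoxia genes and a motif search under summits need a GRCm39 annotation and genome and were not made here. Code was tested on simulated data. Python 3.11.15, numpy 2.4.6, pandas 2.3.3, scipy 1.17.1 and matplotlib 3.10.9 were used.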

Additional observations from a re-analysis of the deposited data

Results flagged for a closer look

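Site 9, about 79.0 kb upstream of Vegfa, drew attention because fold differed in opposite directions in the pairs of the 2 batches. Whether this site lies at another gene was not determined. The log2 fold with TGFβ minus vehicle was -0.15 in pair 1 and -0.06 in pair 2, both of batch 1, and 0.51 in pair 3, of batch 2. With other partners within batch 1 this order would change, since the fold of TGFβ replicate 2 was above that of vehicle replicate 1. The difference between batches was not tested, since batch 2 holds 1 library per treatment. On the scale of pileup over the lowest background of each list, pair 2 had a TGFβ to vehicle ratio of 1.32, in the direction of pair 3, and the counting intervals of fragments at the summit overlapped in each pair.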

How the results depend on the processing

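The peak number ratio (1.60) stayed above 1 in all 11 alternatives and the covered length ratio (1.99) likewise, and neither can reach an exact permutation p of 0.05 with 3 against 3 libraries. Leaving out 1 library gave 1.30 to 2.00 for peaks and 1.43 to 3.26 for covered length. With the replicate block (pairs by batch and title wording) the ratios were 1.56 and 2.24, and no call changed. The mean log2 difference at site 8 (0.54) was 0.46 to 0.75 under the 6 alternatives that kept the batches balanced. Among these, the mean of paired differences equals the main value by construction. The row of highest fold was the row already used, so it gave the same value. Leaving out 1 library ran from -0.15, without vehicle replicate 3, to 1.44, without TGFβ replicate 3. It was 0.15 and 0.02 without TGFβ replicates 1 and 2. By construction, these settings leave the batches unequal between treatments. Sites called in every list (3) numbered 5 in batch 1 alone and 2 to 4 otherwise. Sites found in every TGFβ library and missing from every vehicle library (0) numbered 3 in batch 1 alone, 0 to 3 with 1 library left out, 3 without TGFβ replicate 3, and 3 on average over pairs in the replicate block, which is a looser rule. Absolute read depth is unknown, and a site that a list lacks may have signal below its calling threshold. Alternatives added after seeing the data were the pileup over the background at the summit and, at sites 8 and 9, the pileup over the lowest background. The latter turned pair 2 of site 9 from a TGFβ to vehicle ratio of 0.959 to 1.32 and moved the batch ratio of site 8 from 5.22 to 3.40; the background at these summits differed between the libraries compared.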
